A study of Mus musculus with 50 samples.

Results

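The circadian clock genes described here are Dbp, Tef, Per2, Per3, Nr1d1, Nr1d2, Arntl, Npas2, Clock and Cry1. They were found on the array by their gene symbol: every probe set whose only symbol in the platform annotation is 1 of these 10 names was taken, with no regard to its values. This gave 12 of the 12488 probe sets on the array. Of these, 10 probe sets, 1 for each gene, were bright enough to be tested, out of 8534 tested probe sets for 6350 genes. The other 2 probe sets were both for Cry1 and stayed dim, with signals of at most 100.5 and 96.4 on any array. One of these dim probe sets is annotated to the same source sequence as the tested Cry1 probe set, with a median signal of 15.8 against 1157.1. All Cry1 results below rest on the 1 bright probe set, whose name ends in _f_at, while the names of the dim ones end in _r_at. Whether the bright probe set reads Cry1 alone was not tested, nor was the reason for this disagreement.

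The arrays came from the neocortex and the hippocampus of 8-week-old mice of 3 genotypes: wild-type, S1P2-KO and S1P3-KO. Sphingosine 1-phosphate is a lipid signal that cells sense through the surface receptors S1P2 and S1P3, and the knockouts are deficient in one of them, with no other allele, promoter or treatment named in the labels. The S1P2-deficient mice had sporadic seizures between 4 and 7 weeks of age and the S1P3-deficient mice had none, so seizures precede the tissue sampling in only one of the knockouts. In each tissue 5 male and 5 female arrays were available for wild-type and the same for S1P2-KO, and 2 male and 3 female arrays for S1P3-KO, 50 arrays in all. The series' design text gives the group sizes in another order and names S1P2-deficient mice at both knockout places, so groups follow the sample titles. The titles call the replicates biological, and p-values measure the spread between them. The hour of day at which tissue was taken is not stated in the labels used here.

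The clock is a feedback loop that runs in most cells, neurons and glia of the forebrain included. The transcription factor pairs CLOCK with BMAL1 (encoded by Arntl) and NPAS2 with BMAL1 bind E-boxes and drive Per, Cry, Nr1d, Dbp and Tef, and the PER and CRY proteins then inhibit those same pairs. REV-ERB alpha and REV-ERB beta, encoded by Nr1d1 and Nr1d2, repress Arntl, Npas2, Clock and Cry1 through ROR elements, and DBP and TEF activate genes with D-boxes. The transcripts therefore form arms that peak at opposite times: Dbp, Tef, Per2, Per3, Nr1d1 and Nr1d2 are here called the day-phase arm, and Arntl, Npas2, Clock and Cry1 the night-phase arm. NPAS2 is a paralogue of CLOCK that is abundant in the forebrain, and some Per genes are also induced by neuronal activity.

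The loop acts through short elements in DNA, so 5 of the promoters are shown: 4 that hold such letters near the start, and that of Dbp, which does not. RefSeq (GRCm38.p6) gave a promoter window for 9 of the 10 genes, each from 250 bases before to 50 bases after the transcription start. Both strands were searched for the E-box CACGTG, the D-box TTANGTAA, the ROR element core AGGTCA and the cAMP response element TGACGTCA. These letters occur in 7.15%, 2.32%, 16.3% and 1.79% of the 32851 promoters of that length, in that order. Matches are descriptions of the sequence and do not show binding. In the sequences below, read 5′ to 3′ on the gene's strand, capitals mark a match.

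The window of Per3 (chr4:151044616-151044915, minus strand) holds 2 D-box matches, at 205 and 158 bases before the start.
Per3: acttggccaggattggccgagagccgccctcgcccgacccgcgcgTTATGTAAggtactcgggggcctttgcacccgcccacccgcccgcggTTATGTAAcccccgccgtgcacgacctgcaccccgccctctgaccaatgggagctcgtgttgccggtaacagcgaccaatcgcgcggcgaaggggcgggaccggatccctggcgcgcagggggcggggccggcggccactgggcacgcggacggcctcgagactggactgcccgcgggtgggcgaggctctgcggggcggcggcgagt
The first of the 2 windows of Tef (chr15:81802423-81802722, plus strand) holds an E-box 127 bases before the start.
Tef: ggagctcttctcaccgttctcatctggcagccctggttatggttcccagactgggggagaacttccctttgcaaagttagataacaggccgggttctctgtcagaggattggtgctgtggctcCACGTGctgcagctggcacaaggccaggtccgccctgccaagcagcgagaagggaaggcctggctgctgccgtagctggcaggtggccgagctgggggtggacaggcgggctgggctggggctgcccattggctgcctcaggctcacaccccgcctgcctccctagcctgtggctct
The window of Cry1 (chr10:85185005-85185304, minus strand) holds an E-box 60 bases before the start.
Cry1: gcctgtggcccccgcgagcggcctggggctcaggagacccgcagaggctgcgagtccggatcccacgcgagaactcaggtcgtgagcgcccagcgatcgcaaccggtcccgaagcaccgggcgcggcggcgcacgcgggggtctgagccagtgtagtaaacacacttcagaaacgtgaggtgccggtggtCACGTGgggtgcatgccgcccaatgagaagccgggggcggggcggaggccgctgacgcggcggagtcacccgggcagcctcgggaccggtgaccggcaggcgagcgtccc
The window of Nr1d2 (chr14:18239057-18239356, minus strand) holds a ROR element core 77 bases before the start.
Nr1d2: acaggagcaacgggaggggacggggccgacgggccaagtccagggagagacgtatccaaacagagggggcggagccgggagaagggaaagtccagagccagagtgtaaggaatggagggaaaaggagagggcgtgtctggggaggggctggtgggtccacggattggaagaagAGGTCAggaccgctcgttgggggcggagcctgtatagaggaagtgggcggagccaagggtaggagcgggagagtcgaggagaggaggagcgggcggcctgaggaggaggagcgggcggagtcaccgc
The window of Dbp (chr7:45704997-45705296, plus strand), the gene that the comparisons below turn on most often, holds none of these letters.
Dbp: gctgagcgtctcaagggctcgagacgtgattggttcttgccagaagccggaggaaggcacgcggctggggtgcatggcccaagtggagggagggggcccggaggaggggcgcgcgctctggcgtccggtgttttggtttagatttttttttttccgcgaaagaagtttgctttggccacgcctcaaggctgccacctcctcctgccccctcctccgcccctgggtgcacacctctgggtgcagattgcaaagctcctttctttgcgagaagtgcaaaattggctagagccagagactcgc

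The second window of Tef also held an E-box, and ROR element cores were found in 1 window each of Arntl and Clock. The windows of Nr1d1 and Npas2 held no match, which says nothing of elements outside them. No member's window held the cAMP response element.

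Signals are given as the authors deposited them, linear and scaled by MAS5. Differences (± SE) were estimated by limma on log2(signal + 30.7), which understates the change of dim genes. A gene is called where its p-value, adjusted by Benjamini-Hochberg over all tested probe sets, lies under 0.05. The tissues carried their own markers: the summed signal of the hippocampus marker list (4 of 8 genes on the array) was 6878 to 8441 in wild-type hippocampus and 3145 to 4238 in wild-type neocortex, and that of the neocortex list (5 of 8) was 5932 to 9393 and 17725 to 23511. The genotypes rest on the labels, since neither receptor gene was called in its knockout: S1pr2 differed by -0.10 in neocortex and -0.24 in hippocampus of S1P2-KO (adjusted p = 0.874 and 0.925, limma), and S1pr3 by -0.26 and -0.69 in S1P3-KO (adjusted p = 0.638 and 0.164). The array's 3′ and 5′ control probe sets for Gapdh and beta-actin gave a log2 ratio of 3′ to 5′ signal, which rises when RNA is degraded or incompletely copied. It lay between 0.008 and 0.606 on all neocortex arrays. Hippocampus held 4 arrays that stood apart: S1P3-KO replicate 5 at 4.46, S1P2-KO replicate 7 at 1.37, wild-type replicate 4 at 1.2 and wild-type replicate 3 at 0.749, with the next array at 0.524.

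**Figure D1:**
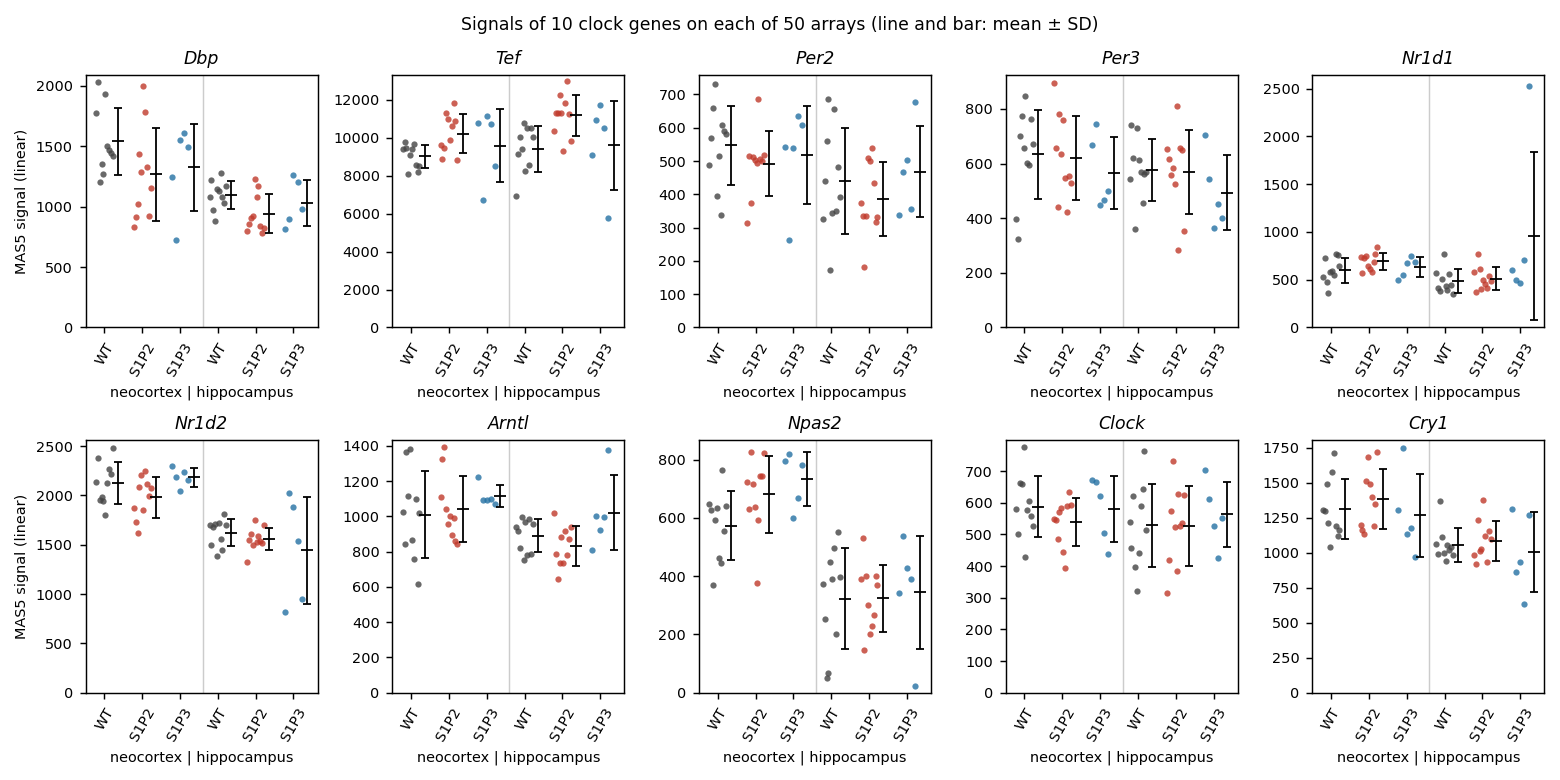
MAS5 signal (linear, from 0) of the 10 clock genes on each of the 50 arrays, with 1 panel per gene, neocortex left and hippocampus right of the grey line, and wild-type (grey), S1P2-KO (red, "S1P2") and S1P3-KO (blue, "S1P3") side by side; points are arrays, and the line and bar beside them are the mean ± SD. Dbp, Nr1d2 and Npas2 sat lower in hippocampus in each genotype, and 1 S1P3-KO hippocampus array held the highest Nr1d1 signal (2526.4) and the lowest Npas2 signal (24.3).

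The first comparison asked whether the 2 tissues differ in their clock transcripts. In wild-type mice 9 of the 10 genes had a lower estimate in hippocampus than in neocortex, and 3 were called, all lower: the output gene Dbp, the repressor gene Nr1d2 and the activator gene Npas2. Over all tested probe sets 14.6% were called in this comparison and 6.74% were called lower. The median difference of the 10 genes was -0.30 on the log2 scale, against 0.0057 over all tested probe sets. The bulk tissue cannot tell fewer cells of a type from less RNA per cell. Markers of some cell types moved with tissue as well. The summed neuron markers (7 of 8 genes) ran from 62809 to 75191 in wild-type hippocampus and from 76743 to 92295 in wild-type neocortex. Of the 7 neuron markers tested, 6 were lower in hippocampus (2 called lower by limma), with a median difference of -0.30, like that of the clock genes. The summed choroid plexus markers (4 of 6) ran from 3651 to 45829 in hippocampus and from 4305 to 8009 in neocortex. Of the 4 tested, 3 were higher in hippocampus (1 called) and 1 was lower. The oligodendrocyte markers (6 of 7) ran from 27831 to 38683 in hippocampus and from 27553 to 33202 in neocortex, and 5 of the 5 tested were higher in hippocampus (2 called, median 0.20). The astrocyte markers (7 of 8) ran from 36430 to 43112 and from 33568 to 39636. Of the 7 tested, 5 were higher in hippocampus (2 called) and 2 were lower, with a median difference of 0.087. Of the microglia markers 0 of 7 tested were called (median 0.065), and of the endothelial markers 0 of 5 (median -0.086). No marker was listed at 0, and the part of these cells in the differences was not tested.

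Among the outputs of the loop, Dbp, a transcription factor that binds D-boxes, had a lowest, median and highest signal of 1207, 1455.5 and 2028.6 on the 10 wild-type neocortex arrays (1539.4 ± 278.8, SD) and of 881, 1104.2 and 1280.5 on the 10 wild-type hippocampus arrays (1098.5 ± 117.5). All 10 hippocampus arrays lay below the neocortex median and 8 of them below every neocortex array. The difference was -0.46 ± 0.12, or 0.725-fold (adjusted p = 0.00566, limma), and Dbp was called in all 31 alternative analyses, whose estimates ran from -0.49 to -0.40. Tef, a D-box factor of the same family, had an estimate near 0. Its medians were 9231.7 in neocortex (8115.9 to 9761.4) and 9719.1 in hippocampus (6947.5 to 10783), and the difference was 0.06 with a 95% interval from -0.13 to 0.24 (adjusted p = 0.761).

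Of the repressor genes, Nr1d2 (REV-ERB beta) had a lowest, median and highest signal of 1803, 2126.9 and 2480.7 in wild-type neocortex and of 1390, 1692.3 and 1812.7 in wild-type hippocampus. The groups met at 1 array: 9 of 10 hippocampus arrays lay below the lowest neocortex array. The difference was -0.38 ± 0.10, or 0.767-fold (adjusted p = 0.00325, limma), and it was called in all 31 alternatives. Its paralogue Nr1d1 (REV-ERB alpha) had a median of 585.7 in neocortex (358.2 to 771.2) and 435.75 in hippocampus (351.9 to 772.8). The ranges overlapped almost entirely, and the difference of -0.30 ± 0.17 was not called (adjusted p = 0.286), except with array weights (adjusted p = 0.0417).

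The genes of the PER and CRY inhibitors had lower estimates without a call. Per2 had a median of 575.35 in neocortex (337.1 to 731.9) and 415.25 in hippocampus (171.4 to 685.4), a difference of -0.35 ± 0.18 (adjusted p = 0.197, limma). Without the 4 hippocampus arrays that stood apart in control ratio, the Per2 difference was -0.52 and was called (adjusted p = 0.0343). Per3 differed by -0.11, with a 95% interval from -0.43 to 0.21 and medians of 663.85 and 567.95. Cry1 had a lowest, median and highest signal of 1041.4, 1255.7 and 1714.2 in neocortex and of 940.3, 1031.6 and 1372.6 in hippocampus, where 5 of the 10 arrays lay below every neocortex array. Its difference of -0.29 ± 0.11 missed the threshold (adjusted p = 0.058) but passed it in 7 of 31 alternatives, among them those without neocortex replicate 5 (adjusted p = 0.0343), without neocortex replicate 9 (just under the threshold at 0.05) or without hippocampus replicate 3 (0.0318).

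Of the activator genes, Npas2 showed the widest difference and the widest spread. Its lowest, median and highest signals were 369.1, 610.65 and 765.1 in wild-type neocortex and 50.9, 381 and 552 in wild-type hippocampus. Every hippocampus array lay below the neocortex median, 4 lay below the lowest neocortex array, and the others overlapped with neocortex. The difference was -0.99 ± 0.30, or 0.503-fold (adjusted p = 0.0163, limma). It rested in part on replicates 3 and 4, both of high control ratio, whose Npas2 signals of 50.9 and 66 were the lowest of the group: without replicate 3 it was -0.78 (adjusted p = 0.058) and without replicate 4 it was -0.81 (adjusted p = 0.0555). Without all 4 hippocampus arrays that stood apart in control ratio it was smaller still, at -0.55, and was called (adjusted p = 0.0268). Arntl, the partner of both NPAS2 and CLOCK, differed by -0.15 ± 0.10 (adjusted p = 0.368), with medians of 1023.1 in neocortex (618.9 to 1384.4) and 929.1 in hippocampus (752.8 to 995.6). Clock, the paralogue of Npas2, differed by -0.17 with a 95% interval from -0.42 to 0.09, and its medians were 578.55 and 526.7.

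The same tissues were then compared within each knockout, whose arrays are separate from those of wild-type. In S1P2-KO, where 14.7% of tested probe sets were called and 7.09% were called lower, 5 of the 10 clock genes were called and all 5 were lower in hippocampus. Npas2 differed by -1.05 ± 0.30 (adjusted p = 0.00987, limma), Dbp by -0.38 ± 0.12 (0.0255) and Nr1d2 by -0.34 ± 0.10 (0.0108). Arntl, at -0.31 ± 0.10 (0.0229), and Cry1, at -0.34 ± 0.11 (0.0253), joined them in this genotype. Dbp had a lowest, median and highest signal of 828, 1224.2 and 1997.6 in S1P2-KO neocortex and 781.6, 877.8 and 1230 in hippocampus, so the ranges overlapped more than in wild-type. For Nr1d2 these values were 1621, 2037.7 and 2243.7 in neocortex and 1324.7, 1539.6 and 1748.1 in hippocampus, with 8 of 10 hippocampus arrays below every neocortex array. The Dbp call was lost without neocortex replicate 4, 5, 6 or 7 or hippocampus replicate 9 (adjusted p up to 0.0722). The Cry1 call was lost without neocortex replicate 5 or 10 or hippocampus replicate 2 (up to 0.0627), and the Arntl call without replicate 3 of either tissue (up to 0.0573). Nr1d1, at -0.43, was not called (adjusted p = 0.0924) but was called in 5 of 31 alternatives. These were all 4 that weight, adjust for or leave out arrays by quality, namely array weights (adjusted p = 0.00501), the control ratio as covariate (0.00782) and the omission of arrays of a ratio above 1 (0.016) or above 0.7 (0.0138), and the one without hippocampus replicate 3 (0.0492).

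In S1P3-KO, with 5 arrays a tissue, 12% of tested probe sets were called and 6% were called lower, and 2 clock genes were called, both lower. Nr1d2 gave signals of 2295.6, 2189.2, 2040.3, 2239.1 and 2157.5 in neocortex and of 815.3, 2029.5, 1879.8, 1542.8 and 949.6 in hippocampus, in the order of the replicate numbers. All 5 hippocampus arrays lay below all 5 neocortex arrays, though replicates 1 and 5 were far lower than the other 3. The difference was -0.67 ± 0.14 (adjusted p = 0.000382, limma), and without hippocampus replicate 5, the array with the ratio of 4.46, it was -0.54 (adjusted p = 0.0042). Npas2 gave 795.8, 817.8, 600.3, 669.5 and 780.7 in neocortex and 341.2, 537.4, 427.7, 390 and 24.3 in hippocampus, again without overlap. Its difference of -1.38 ± 0.42 (adjusted p = 0.0233) was -0.77 and lost its call without hippocampus replicate 5 (adjusted p = 0.224). It was the same -0.77 when arrays of the other genotypes were left out as well, not called without the 3 arrays of a ratio above 1 (0.153) and called without the 4 above 0.7 (0.0407), and it was -0.59 and not called with the ratio as covariate (0.345). Dbp gave 1248.1, 725.9, 1552.1, 1605.6 and 1496.7 in neocortex and 812.5, 898.6, 1258, 1205.2 and 977.9 in hippocampus. All 5 Dbp values of hippocampus lay below the neocortex median, and the difference of -0.30 ± 0.17 was not called (adjusted p = 0.284). Cry1 was called without hippocampus replicate 1 (-0.46, adjusted p = 0.0478) and not otherwise.

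The size of the tissue difference was compared between genotypes directly. No clock gene was called for either knockout against wild-type (0% of tested probe sets were called in either comparison by limma, and 2.6% and 5.13% had an unadjusted p under 0.05 for S1P2-KO and S1P3-KO). The extra difference was 0.08 for Dbp in S1P2-KO, with a 95% interval from -0.27 to 0.43, and 0.16 in S1P3-KO, from -0.27 to 0.59. For Nr1d2 it was 0.05 (-0.23 to 0.32) and -0.29 (-0.63 to 0.05), and for Npas2 -0.06 (-0.91 to 0.79) and -0.39 (-1.43 to 0.65). The additional calls in S1P2-KO are thus not shown to be a difference between genotypes.

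**Figure D2:**
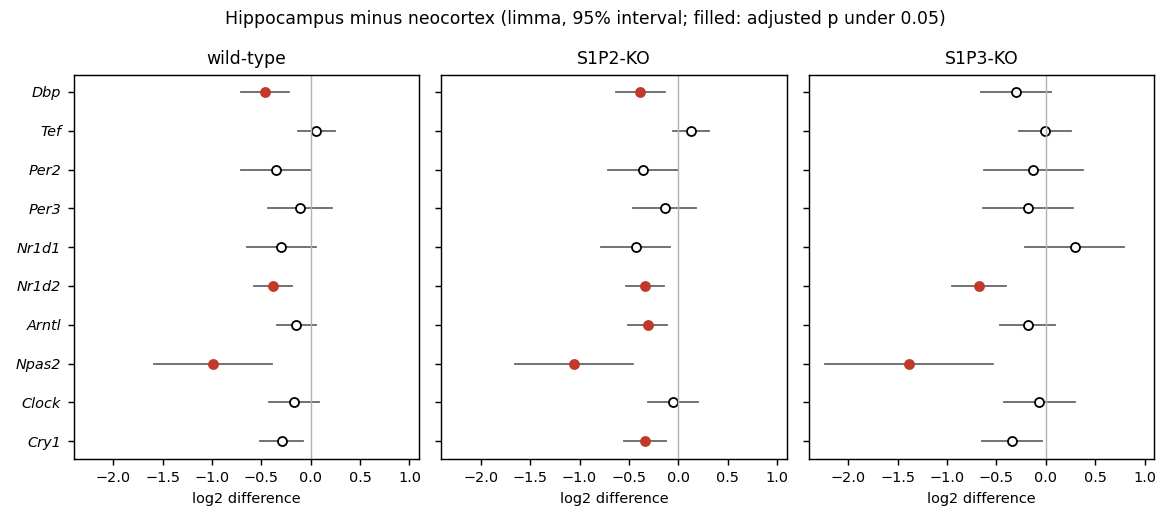
Hippocampus minus neocortex for the 10 clock genes in each genotype, as the log2 difference from limma with its 95% interval; filled points were called (adjusted p under 0.05) and open points were not. The filled points are Dbp, Nr1d2 and Npas2 in wild-type, these and Arntl and Cry1 in S1P2-KO, and Nr1d2 and Npas2 in S1P3-KO, all left of 0.

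A list of other genes of the clock and its regulators was measured alongside, with 13 of 22 genes tested. In wild-type mice 10 of the 13 had a lower estimate in hippocampus, 5 were called lower and 1 was called higher, with a median difference of -0.33. Over all tested probe sets 14.6% were called there and 6.74% were called lower. Rora, the activator that competes with the REV-ERB proteins at ROR elements, differed by -0.82 ± 0.11 (adjusted p = 6.3e-08, limma), and it is also on the list of thalamus markers. Usp2, a deubiquitinase and a target of the clock, differed by -0.38 ± 0.07 (5.29e-05). Bhlhe40, a repressor at E-boxes, differed by -0.68 ± 0.14 (0.000354). Nono, a binding partner of PER proteins, was the gene called higher, at 0.41 ± 0.09 (0.000379). Cry2, the second cryptochrome gene, differed by -0.89 ± 0.30 (0.0351); its signals were between 189.2 and 294.9 on the 4 arrays that stood apart in control ratio, while its wild-type hippocampus median was 1561.5. Per1, a Per gene that neuronal activity induces, differed by -0.33 ± 0.24 (adjusted p = 0.423). In S1P2-KO 3 of the 13 were called lower and 0 higher, where 14.7% of all tested probe sets were called and 7.09% lower. In S1P3-KO 1 was called lower and 1 higher, where 12% were called and 6% lower, so the S1P3-KO counts were near the share of all tested probe sets. Rora was called lower in both knockouts (-0.81 and -0.94).

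The central comparison of the study is that of the knockouts with wild-type. In neocortex no clock gene was called in S1P2-KO, where 0% of all tested probe sets were called by limma (746, or 8.74%, had an unadjusted p under 0.05), and 2 clock genes had an unadjusted p under 0.05. Dbp was the lower of them. Its S1P2-KO signals in neocortex had a median of 1224.2 (828 to 1997.6) against 1455.5 (1207 to 2028.6) in wild-type, so that 8 of 10 knockout values fell under the wild-type median and 5 under the whole wild-type range, while the highest values of both groups were alike. The difference was -0.31 ± 0.14, or 0.808-fold, with a 95% interval from -0.59 to -0.02 (p = 0.0348, adjusted p = 0.505). Tef was the higher: its median was 10248 in S1P2-KO (8814.6 to 11814) against 9231.7 in wild-type, and 6 of 10 arrays lay above every wild-type array. The Tef difference was 0.18 ± 0.08, with an interval from 0.02 to 0.33 (p = 0.0271, adjusted p = 0.477).

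Dbp and Tef had the same directions in hippocampus. In S1P2-KO hippocampus 0% of tested probe sets were called by limma (473, or 5.54%, had an unadjusted p under 0.05). Dbp had a median of 877.8 in S1P2-KO against 1104.2 in wild-type, and 5 of 10 arrays lay below every wild-type array. The difference was -0.23 ± 0.10, with an interval from -0.43 to -0.03 (p = 0.027, adjusted p = 0.852). Tef had a median of 11311 in S1P2-KO (9320 to 12978) against 9719.1 in wild-type, 7 of 10 knockout values exceeded the whole wild-type range, and there was a difference of 0.25 ± 0.10 (p = 0.0225, adjusted p = 0.818). Over 30 alternatives in neocortex and 32 in hippocampus the Dbp estimate stayed between -0.37 and -0.24 and between -0.31 and -0.19, and that of Tef between 0.16 and 0.20 and between 0.20 and 0.28, with no adjusted p under 0.294. The tissues are not independent evidence if arrays of one number come from one mouse, which the labels do not state. The other 8 genes had S1P2-KO estimates from -0.14 to 0.24 in neocortex and from -0.15 to 0.17 in hippocampus.

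In S1P3-KO neocortex 0% of tested probe sets were called by limma (895, or 10.5%, had an unadjusted p under 0.05), and Npas2 was the 1 clock gene with an unadjusted p under 0.05. Its signals of 600.3 to 817.8 had a median of 780.7 against 610.65 in wild-type, 3 of 5 arrays lay above every wild-type array, and the difference was 0.37 ± 0.16 (p = 0.027, adjusted p = 0.413). Dbp differed by -0.27, with an interval from -0.62 to 0.08; replicate 2, at 725.9, was below every wild-type array, and the other 4 arrays, at 1248.1 to 1605.6, lay within the wild-type range. The Dbp estimate was -0.10 without replicate 2 (adjusted p = 0.852) and -0.58 with the replicate number as a block (adjusted p = 0.284). That block matched arrays of one number across genotypes, which come from different mice. Replicates 3 to 5 are female in S1P3-KO and male in wild-type, so like arrays were not matched. In S1P3-KO hippocampus 0.0352% of tested probe sets were called by limma (814, or 9.54%, had an unadjusted p under 0.05), and no clock gene was among those called. Nr1d1 gave 602.4, 492.5, 460.7, 702.7 and 2526.4, against a wild-type range of 351.9 to 772.8. The first 4 values lay within that range. The difference of 0.66 ± 0.27 (p = 0.0203, adjusted p = 0.443) was 0.23 without replicate 5 (adjusted p = 0.797).

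The knockouts were also set against each other, where 0% of tested probe sets were called in either tissue by limma (506, or 5.93%, had an unadjusted p under 0.05 in neocortex and 982, or 11.5%, in hippocampus). No clock gene was called. In neocortex the 10 estimates of S1P2-KO minus S1P3-KO ran from -0.14 to 0.16. In hippocampus Arntl differed by -0.27 ± 0.12 (p = 0.03, adjusted p = 0.393) and Nr1d1 by -0.57 ± 0.27 (p = 0.0418, adjusted p = 0.419). Without S1P3-KO hippocampus replicate 5, which held the highest signal of its group for both genes (1374.6 for Arntl), these were -0.17 and -0.14. The comparisons with wild-type share the wild-type arrays, and those of the knockouts share arrays with both. None of the 13 other clock genes was called in any of these 6 comparisons (0 of 13 by limma in each), with Per1 at -0.25 and Cry2 at -0.07 in S1P2-KO neocortex (adjusted p = 0.692 and 0.847).

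**Figure D3:**
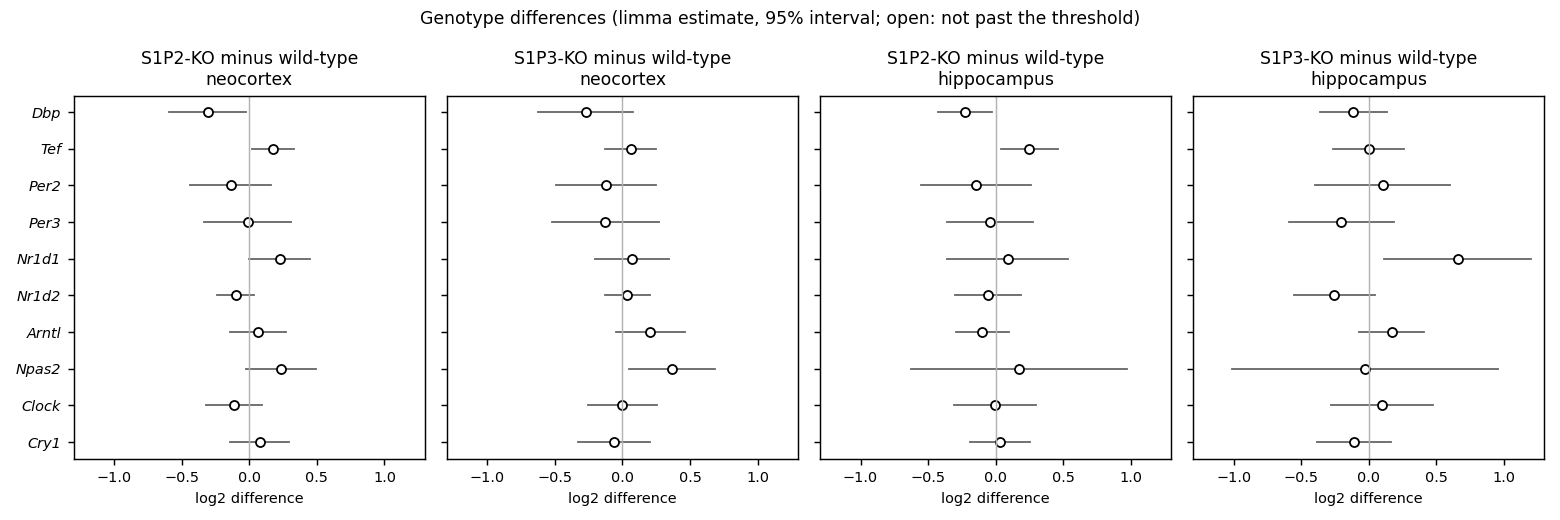
Knockout minus wild-type for the 10 clock genes in neocortex (left pair of panels) and hippocampus (right pair), as the log2 difference from limma with its 95% interval; all points are open because none was called. The intervals of Dbp (below 0) and Tef (above 0) exclude 0 before adjustment in S1P2-KO of both tissues, and the interval of Npas2 in hippocampus is the widest, from -1.01 to 0.96 in S1P3-KO.

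Sex was the other labelled factor. No clock gene was called between females and males in either tissue, where 0.0586% of tested probe sets were called in neocortex and 0.0586% in hippocampus by limma (525, or 6.15%, and 438, or 5.13%, had an unadjusted p under 0.05). In neocortex Arntl had a lowest, median and highest signal of 842.1, 1113.8 and 1394.9 on 12 male arrays and 618.9, 993 and 1100.1 on 13 female arrays. All 13 female arrays lay below the male median, and the difference was -0.30 ± 0.09 (p = 0.00259, adjusted p = 0.645). Dbp went the other way, with medians of 1258.9 in males and 1496.7 in females and 11 of 13 female arrays above the male median; the difference was 0.29 ± 0.12 (p = 0.0259, adjusted p = 0.785). Nr1d1 had medians of 578.55 and 683.6 and differed by 0.21 ± 0.10 (p = 0.039, adjusted p = 0.803). In hippocampus the corresponding differences were 0.08 for Arntl, 0.12 for Dbp and -0.01 for Nr1d1, and no clock gene had an unadjusted p under 0.05.

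Because the hour of sampling is not stated, the variation between arrays of one group was examined next. Over the 25 neocortex arrays Dbp ran from 725.9 to 2028.6, a 2.79-fold range, and over the 25 hippocampus arrays from 781.6 to 1280.5, a 1.64-fold range. Its SD within genotypes was 0.36 on the log2 scale in neocortex, larger than that of 70.1% of tested probe sets, and 0.21 in hippocampus, larger than that of 17.9%. Nr1d2 was the steadiest in neocortex, with a 1.53-fold range and an SD of 0.14. Npas2 varied the most in hippocampus, with a 22.7-fold range from 24.3 to 552, followed by Nr1d1 with a 7.18-fold range, and both extremes came from the S1P3-KO array with the ratio of 4.46.

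Each array was then given a mean level for each arm, as the mean over its genes of log2 values centred on the group mean. In neocortex the arms were inversely related over the 25 arrays (Pearson r = -0.56, Spearman rho = -0.51), and r was -0.46 without the 2 arrays farthest from the median. Within wild-type arrays alone r was -0.56 and within S1P2-KO arrays alone -0.45 (10 arrays each). When sex was centred out as well, r was -0.32. In hippocampus r was -0.29 and rho -0.22, with -0.14 without the 2 farthest arrays, -0.20 without the 3 arrays of a ratio above 1, 0.07 in wild-type alone and -0.41 in S1P2-KO alone. The gene lists were chosen with these arrays known and genes of an array share its scaling, so these values are descriptions and carry no p-value.

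Single pairs showed how far the arms hold together. In neocortex 17 of the 24 pairs made of 1 gene from each arm had a negative r (median -0.10), and 9 of the 15 pairs within the day-phase arm had a positive r (median 0.12). Within the night-phase arm 4 of 6 pairs were positive (median 0.07), while Cry1 had a negative r with Arntl (-0.33) and with Npas2 (-0.31). The strongest neocortex pairs were Dbp with Clock (r = -0.63, rho = -0.62), Dbp with Tef (0.55 and 0.53) and Dbp with Per2 (0.52 and 0.25). S1P3-KO replicate 2 held the lowest neocortex signal of both Dbp (725.9) and Per2 (263.8). Dbp with Nr1d1 had r = 0.12. Per3 had a negative r with each other day-phase gene (-0.35 to -0.18), Dbp included (-0.35). In hippocampus 12 of 24 pairs between the arms were negative, and within the day-phase arm 9 of 15 were negative. Within the night-phase arm of hippocampus 5 of 6 pairs were negative (median -0.15), with Npas2 and Cry1 at r = -0.59. The members of an arm thus did not all vary together in either tissue. The strongest pair in hippocampus, Nr1d1 with Tef (r = -0.65), included the outlying Nr1d1 array. All these are over 25 arrays of 1 tissue.

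**Figure D4:**
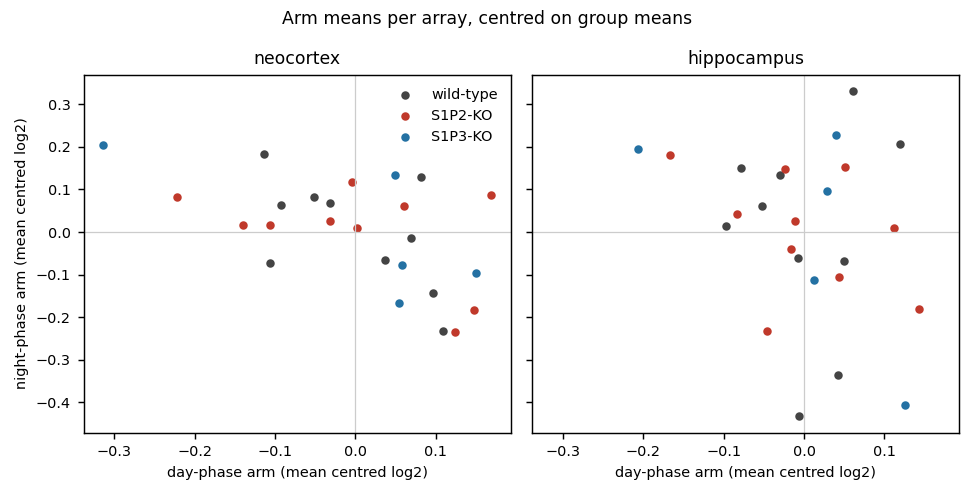
Mean centred log2 level of the night-phase arm (Arntl, Npas2, Clock, Cry1) against that of the day-phase arm (Dbp, Tef, Per2, Per3, Nr1d1, Nr1d2) on each of 25 neocortex (left) and 25 hippocampus arrays (right), coloured by genotype. The neocortex points slope downward (r = -0.56), and the hippocampus points scatter more widely (r = -0.29).

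A fit across all probe sets asked which genes follow the level of Dbp between arrays of one genotype and sex. None of the 9 other clock genes was called in either tissue, where 0% of tested probe sets were called by limma (790, or 9.26%, had an unadjusted p under 0.05 in neocortex and 250, or 2.93%, in hippocampus). In neocortex the slope of Tef was 0.29 ± 0.10 log2 units per log2 unit of Dbp (p = 0.00631, adjusted p = 0.354), that of Per2 0.45 ± 0.20 (p = 0.0299) and that of Clock -0.33 ± 0.14 (p = 0.0217). Over 33 alternatives the Per2 slope ran from 0.25 to 0.55. In hippocampus no clock gene had an unadjusted p under 0.05.

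The relations of Dbp and Arntl, 4 in all, were tested by permutation of arrays within genotype (100000 permutations, two-sided), with p-values adjusted over the 4. Both genes were chosen with earlier results of these data known, which these p-values do not account for. Arrays were permuted without regard to sex, which arrays of one genotype and number share. Dbp and Arntl, an output and an activator in opposite arms, had r = -0.33 and rho = -0.42 in neocortex (adjusted permutation p = 0.135 and 0.0709, n = 25) and r = -0.05 in hippocampus (adjusted p = 0.841). Without the 2 farthest arrays these were -0.42 and -0.19. Dbp in neocortex and Dbp in hippocampus were compared over the 25 pairs of arrays that carry the same genotype and replicate number. Here r was 0.63 and rho 0.67 (permutation p = 0.00246 and 0.00066, adjusted p = 0.00984 and 0.00264), and r was 0.61 without the 2 farthest pairs. The relation stood at 0.60 without the 3 pairs that hold a hippocampus array of ratio above 1 (adjusted p = 0.0499) and at 0.59 with sex centred out (0.0254); within wild-type alone it was 0.45 (0.391) and within S1P2-KO alone 0.72 (0.0851). For Arntl the same comparison gave r = -0.22 and rho = -0.19 (adjusted p = 0.323).

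The Dbp value can be read against the other probe sets. The median r across tissues over all 8534 tested probe sets was 0.14, and 2.33% of them had an r at or above that of Dbp. Per2 stood at 0.30, a value that 25.5% of probe sets reached, Tef at 0.21, Nr1d1 at 0.19, Per3 at 0.14, Npas2 at 0.12, Cry1 and Clock at 0.02 and Nr1d2 at -0.06. Fos, the immediate early gene, stood at 0.74, which 0.656% of probe sets reached.

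The probe sets most like Dbp in both tissues, ranked by the smaller of the 2 correlations over 25 arrays each, were those of Tox4 (0.53), Rnf145 (0.52), Ifnar1 (0.51), Wdr6 (0.51) and Colgalt1 (0.51). Those most opposite were Hba-a1 and Hba-ps3 (both -0.56), Hbb-b2 (-0.55), Prg3 (-0.54) and Inhba (-0.49), of which Hba-a1 and Hbb-b2 encode globin chains of red blood cells. The part of blood content in the Dbp levels was not tested. Most like Arntl were Pclo (0.53), Cmas (0.51) and Cpne1 (0.51). No other clock gene was among them. These genes are the extremes of all tested probe sets with 1 symbol, carry no p-value and were not adjusted for sex. In the fit on the level of Dbp, which included sex, 0% of tested probe sets were called in either tissue by limma.

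Neuronal activity induces some Per genes in neurons, so the 10 clock genes were set against Fos in each tissue. This is a family of 20 relations chosen after the data had been seen. Fos had a median of 2833.3 in wild-type neocortex (1051.5 to 5738.9), 1092.7 in S1P2-KO neocortex (378.2 to 2539) and 1378.6 in S1P3-KO neocortex (831.5 to 1974.3), and it differed by -1.32 ± 0.27 in S1P2-KO (adjusted p = 0.0764, limma). Within groups, Per2 followed Fos in neocortex with r = 0.66 and rho = 0.62 over 25 arrays (permutation p = 0.00043 and 0.00114, adjusted over the 20 to 0.0086 and 0.0228). It was 0.66 without the 2 farthest arrays, 0.70 in wild-type alone and 0.63 in S1P2-KO alone. In hippocampus Per2 and Fos had r = 0.30 (adjusted p = 0.514), and the difference between tissues was not tested. Per3 and Fos had r = -0.20 in neocortex and -0.39 in hippocampus (adjusted permutation p = 0.664 and 0.122). Dbp and Fos had r = -0.02 in neocortex (adjusted p = 0.946), made up of -0.55 in wild-type alone and 0.07 in S1P2-KO alone. In hippocampus their r was -0.27 (adjusted p = 0.417), with -0.76 in wild-type alone and -0.08 in S1P2-KO alone. The values of single genotypes (10 arrays each) and the differences between them were not tested.

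Npas2 and Fos had r = -0.65 in hippocampus (adjusted permutation p = 0.0209), but rho was -0.47 (adjusted p = 0.159) and r without the 2 farthest arrays was -0.43. It was -0.73 in wild-type alone and -0.29 in S1P2-KO alone. On the 4 hippocampus arrays that stood apart in control ratio, Npas2 stood at 24.3, 227.5, 66 and 50.9 and Fos at 834.9, 483.7, 2562 and 2643, in the order of falling ratio. The part of RNA quality in this relation was not tested. In the other relations of the family the adjusted p of r was 0.122 or more.

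**Figure D5:**
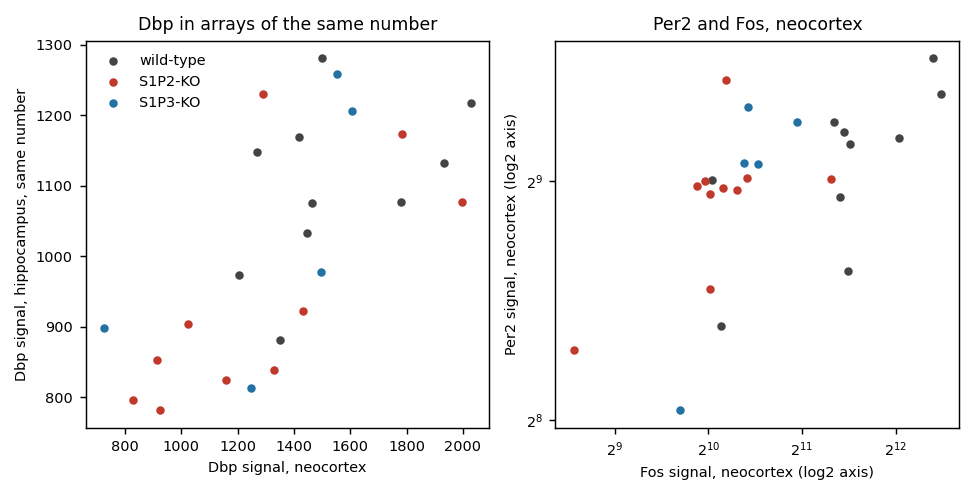
Left, Dbp signal in hippocampus against Dbp signal in neocortex for the 25 pairs of arrays of the same genotype and replicate number (both linear, axes not from 0). Right, Per2 signal against Fos signal on the 25 neocortex arrays (both log2 axes); colours are genotypes. Both clouds rise, with r = 0.63 and r = 0.66 after centring on group means.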

How the data were processed

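RNA of 50 samples was hybridised to Affymetrix arrays, with 12 µg of total RNA per labelling, per the labels' protocols. The deposited table holds linear intensities, 1 for each probe set on each array, which the authors made with MAS5 per the submitters' processing notes. Its software version is not given in the sources used here. They had been scaled before deposit: the mean after trimming 2% at either end was 1000.56 to 1000.66 on every array, and no further scaling was applied. Such scaling removes shifts common to an array, and MAS5 makes dim signals noisy. Arrays have no read depth, so precision depends on how many there are.

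Gene names came from the platform annotation (10855 probe sets with 1 symbol, 396 with several, 1237 with none), and 10839 matched RefSeq GRCm38.p6 by gene identifier. The brightest probe set stood for a gene. Computed values are log2(signal + 30.7), the 10th percentile of all signals. The 66 control probe sets, and probe sets whose mean lay under the pooled 30th percentile, were left out of tests. The limma package 3.58.1 (R 4.3.3; lmFit, eBayes with trend) fitted the models: genotype and sex in each tissue, and for tissue comparisons a mean per genotype and tissue with sex within tissue over all 50 arrays. Correlations used levels centred on group means. The fitting code was checked on simulated data. In no comparison did every pair of same-numbered arrays correlate above 0.1, so the main fits did not use the numbers as pairs. Between the tissues of S1P2-KO all 10 pairs were above 0 (0.0359 to 0.225). This does not settle whether same-numbered arrays share a mouse. The correlations of Dbp and of Arntl across tissues and the replicate block did use the numbers.

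The 10 genes and all gene lists were chosen with earlier results of these data known. All 10 genes were tested in every comparison of groups, and the plots of the tissue differences and of knockout minus wild-type show all 10. Those that were called are named in the text. Uncalled genes are all named only in the wild-type tissue comparison, and elsewhere only some are, often those of low p. Other clock genes are named mainly in the wild-type tissue comparison (up to 4 called genes by p, with Per1 and Cry2). Fos and the few genes most like Dbp and Arntl are named where they were compared. Alternatives changed the pseudocount, the filter, the scaling, array weights, the handling of arrays with a high 3′ to 5′ control ratio, the replicate block and each array in turn. The omission of all 4 arrays of a ratio above 0.7, the tissue comparison in the knockouts and the relations with Fos were added after the data had been seen.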

Additional observations from a re-analysis of the deposited data

Results flagged for a closer look

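Each of the 10 genes was checked in each of the 6 groups for an array that stood far from the rest of its group by Dixon's criterion at 95%, and 7 of these 60 groups held one. Chance flags about 1 group in 20.

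A pair of these lay on S1P3-KO hippocampus replicate 5, the array with a 3′ to 5′ ratio of 4.46. Npas2 read 24.3 there, against 341.2 on the next lowest array of the group, and Nr1d1 read 2526.4, against 702.7 on the next highest. Cry1 read 1372.6 on wild-type hippocampus replicate 3, whose ratio was 0.749, against 1112 on the next highest array.

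The other 4 arrays had ratios from 0.21 to 0.393. In S1P3-KO neocortex, Arntl read 1222.6 on replicate 1, against 1100.1 on the next array, and Per2 read 263.8 on replicate 2, against 538.8. Per2 read 180.4 on S1P2-KO hippocampus replicate 3, against 316.8, and Npas2 read 378.1 on S1P2-KO neocortex replicate 6, against 592.5.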

How the results depend on the processing

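No clock gene was called in any genotype, sex or Dbp comparison under any alternative run, over 2932 recomputed values (lowest adjusted p 0.224, limma), and leaving out each array gave 0 throughout. Of these values 148 changed sign, all of uncalled genes. In the wild-type tissue comparison the count of 3 became 5 with array weights and 5 without the 4 arrays of a 3′ to 5′ ratio above 0.7, and 2 to 4 when each array was left out. The S1P2-KO count of 5 ran from 3 to 5 when each array was left out, and it was 6, with Nr1d1 added, with array weights, with the ratio as covariate and without the arrays of a ratio above 1 or above 0.7. The S1P3-KO count of 2 became 1 with array weights, 1 without the arrays of a ratio above 1 and 1 with the ratio as covariate, and 1 to 3 with each array left out. The cause of these changes was not tested.

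The correlation of Dbp with Arntl in hippocampus was 0.065 after quantile normalization. That of Dbp across tissues missed the threshold in wild-type arrays alone (0.45) and in S1P2-KO arrays alone (0.72), which hold 10 pairs each, and that of Arntl across tissues was 0.0934 in wild-type alone.

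In no comparison did every pair of same-numbered arrays correlate above 0.1, so the numbers were not taken as pairs in the main fits. Between tissues the correlations ran from -0.0566 to 0.189 in wild-type (5 of 10 above 0.1), from 0.0359 to 0.225 in S1P2-KO (7 of 10, with the own number best for 5) and from -0.27 to 0.0688 in S1P3-KO (0 of 5). In S1P2-KO all 10 were thus positive. With the replicate number as a block, 0 clock genes were called in all 6 genotype comparisons and 3, 5 and 2 in the tissue comparisons of wild-type, S1P2-KO and S1P3-KO. In the genotype comparisons this block matched arrays of different mice, and for S1P3-KO partly of different sex.

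The precision is set by the number of arrays and by signals over background. For Npas2 in hippocampus the 95% interval of a genotype difference reached 0.98 log2 units to either side, against 0.32 or less for any clock gene between S1P2-KO and wild-type in neocortex. These intervals are not adjusted, and a call needed a larger difference than they show.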
